A study of Mus musculus with 126 samples.

Results

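The 7 genes described here, Lifr, Il6st, Jak1, Stat3, Socs3, Pim1 and Pim3, encode core parts of the signalling route that runs from leukaemia inhibitory factor (LIF) to the transcription factor Stat3. They were taken by symbol from a deposited table of 23420 mouse genes, and all 7 were among the 15822 genes with enough reads to be tested. LIF binds the receptor chain Lifr, which pairs with gp130, the product of Il6st. Kinases of the JAK family, of which Jak1 is the main one on gp130, then phosphorylate Stat3, and Stat3 enters the nucleus and switches on targets that include Socs3, Pim1 and Pim3. Mouse embryonic stem cells in serum need this signal to keep dividing without differentiating, and Socs3 in turn shuts it down.

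The study asks how DNA methylation and histone acetylation shape where transcription factors sit on the genome. Its RNA-seq comprises 8 of 126 samples, in 4 groups of 2 libraries, and the other 118 samples were not analysed here. The cells were mouse embryonic stem cells of the J1 line, either wild type or TKO, which is Dnmt1-/-, Dnmt3a-/-, Dnmt3b-/- and so lacks the enzymes that write and copy DNA methylation. Each genotype was kept for 36 h in Trichostatin A (TSA), an inhibitor of histone deacetylases, at a labelled 5 ng/µl, or in 0.0033% DMSO, the solvent. Libraries are named by genotype, treatment and replicate number, as in TKO TSA replicate 1. Cells of all 4 groups were grown on gelatin in serum with LIF at 10 ng/ml, so no group shows the pathway without its ligand. The labels used here do not state whether the TKO cells were 1 clone. RNA levels do not show whether the proteins were present or phosphorylated.

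Total counts ran from 13280631 to 15542527 per library, and the members had 827 to 3792 counts each, so counting error alone was 1.62% to 3.48% of a value. The targeted genes Dnmt1, Dnmt3a and Dnmt3b were lower in all 4 TKO libraries than in all 4 wild type libraries, but their RNA was not absent. In normalised CPM (counts scaled to a common library size), Dnmt1 was at 123 to 134 in TKO and 360 to 464 in wild type. Dnmt3a was at 25.9 to 39.1 in TKO and 151 to 236 in wild type, and Dnmt3b at 43.6 to 76.0 and 343 to 596. The embryonic stem cell markers were present in every library, with Pou5f1 at 302 to 949 and Nanog at 185 to 465 normalised CPM. Their summed level, over 8 markers, was 3567 to 3933 CPM in wild type cells with DMSO, 2097 to 2288 in wild type cells with TSA, 4398 to 4740 in TKO cells with DMSO and 2090 to 2370 in TKO cells with TSA.

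The DNA just upstream of the 4 members whose response to TSA in wild type was called under every processing alternative, Lifr, Jak1, Socs3 and Pim3, is shown to place the genes and their motifs. Each line gives the 250 bases before a RefSeq transcript start (build GRCm38.p6), 5′ to 3′ on the strand of the gene. Capitals mark GGGCGG, the core of the SP factors' motif, or its reverse complement CCGCCC, and TTCNNNGAA, the STAT motif. The windows are chr15:7129322-7129571 (plus strand) for Lifr, chr4:101265224-101265473 (minus strand) for Jak1, chr11:117969367-117969616 (minus strand) for Socs3 and chr15:88861944-88862193 (plus strand) for Pim3.
Lifr: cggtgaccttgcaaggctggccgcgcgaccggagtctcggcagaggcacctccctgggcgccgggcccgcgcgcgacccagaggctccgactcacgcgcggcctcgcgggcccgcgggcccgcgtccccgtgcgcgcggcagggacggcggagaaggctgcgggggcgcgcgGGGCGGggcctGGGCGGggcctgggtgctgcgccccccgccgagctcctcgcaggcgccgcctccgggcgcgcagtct
Jak1: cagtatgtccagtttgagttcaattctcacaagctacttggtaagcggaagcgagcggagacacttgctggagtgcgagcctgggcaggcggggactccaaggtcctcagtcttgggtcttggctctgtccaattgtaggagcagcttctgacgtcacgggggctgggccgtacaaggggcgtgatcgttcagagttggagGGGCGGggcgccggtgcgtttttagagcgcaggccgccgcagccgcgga
Socs3: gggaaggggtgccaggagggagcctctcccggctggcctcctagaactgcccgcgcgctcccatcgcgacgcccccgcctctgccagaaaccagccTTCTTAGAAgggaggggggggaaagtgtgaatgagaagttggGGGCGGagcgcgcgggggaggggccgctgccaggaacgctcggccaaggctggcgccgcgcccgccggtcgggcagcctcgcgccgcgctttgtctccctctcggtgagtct
Pim3: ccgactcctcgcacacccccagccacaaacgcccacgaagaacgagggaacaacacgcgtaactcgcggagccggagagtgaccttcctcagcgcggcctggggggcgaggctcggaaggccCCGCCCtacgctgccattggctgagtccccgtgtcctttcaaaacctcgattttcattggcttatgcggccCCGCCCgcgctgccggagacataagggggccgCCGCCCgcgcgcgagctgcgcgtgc

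RefSeq lists 9 windows for the 7 members, since Lifr and Pim1 each have a pair, and each window spans 300 bases, from 250 before to 50 after a start. The STAT motif was found in 1 of the 9, that of Socs3, as TTCTTAGAA with its first base at position -154 from the start, and 8.3% of the 32851 windows of all genes hold it. The SP motif was found in 7 of the 9, against 35.66% of all windows, and it lies in the first listed window of every member. Windows of like base composition were not compared, so no enrichment of the motif is read from these counts. The motifs of GABPA (CCGGAAGT) and YY1 (AAGATGGC) had no match in the 9 windows, and the E-box CACGTG had 1, in the second window of Pim1. These 3 are held by 3.89%, 2.75% and 7.15% of all windows, in the same order. Motifs were searched on both strands, and the searched letters do not overlap one another in the printed windows.

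CpG sites, the substrate of the missing methyltransferases, were dense in most of these windows. The first Lifr window holds 53 CpG in its 300 bases, more than 99.55% of all windows, while the median window holds 7. Pim1 followed with 42, Pim3 with 40, Il6st with 33, Socs3 with 31, Jak1 with 29 and Stat3 with 15. The second windows of Lifr and Pim1 hold 4 and 5, and these are the windows without the SP motif, whose letters include a CpG. Methylation itself was not measured in the data used here.

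Per base of exon, the Stat3 targets Pim3, Socs3 and Pim1 had the highest levels of the 7 members over the 8 libraries, and Jak1 and the receptor chains had the lowest. Over the 8 libraries the mean RPKM, which is the normalised CPM divided by the exon length in kilobases, was 72.2 for Pim3, 56.4 for Socs3, 52.2 for Pim1, 33.1 for Stat3, 23.9 for Il6st, 21.4 for Jak1 and 16.8 for Lifr. Even Lifr lay above 66.6% of the genes tested on this scale, and Pim3 above 92.6%. Jak1 had the widest spread between group means, 2.62-fold from the lowest to the highest group, ahead of Lifr with 2.14-fold and Pim3 with 2.08-fold. Il6st had the narrowest, 1.26-fold. The order of the members depended on the group. In wild type DMSO Jak1 was the lowest of the 7, at 12.9 RPKM, and in TKO cells with TSA, at 33.8 RPKM, it stood above Stat3, Il6st and Lifr.

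**Figure D1:**
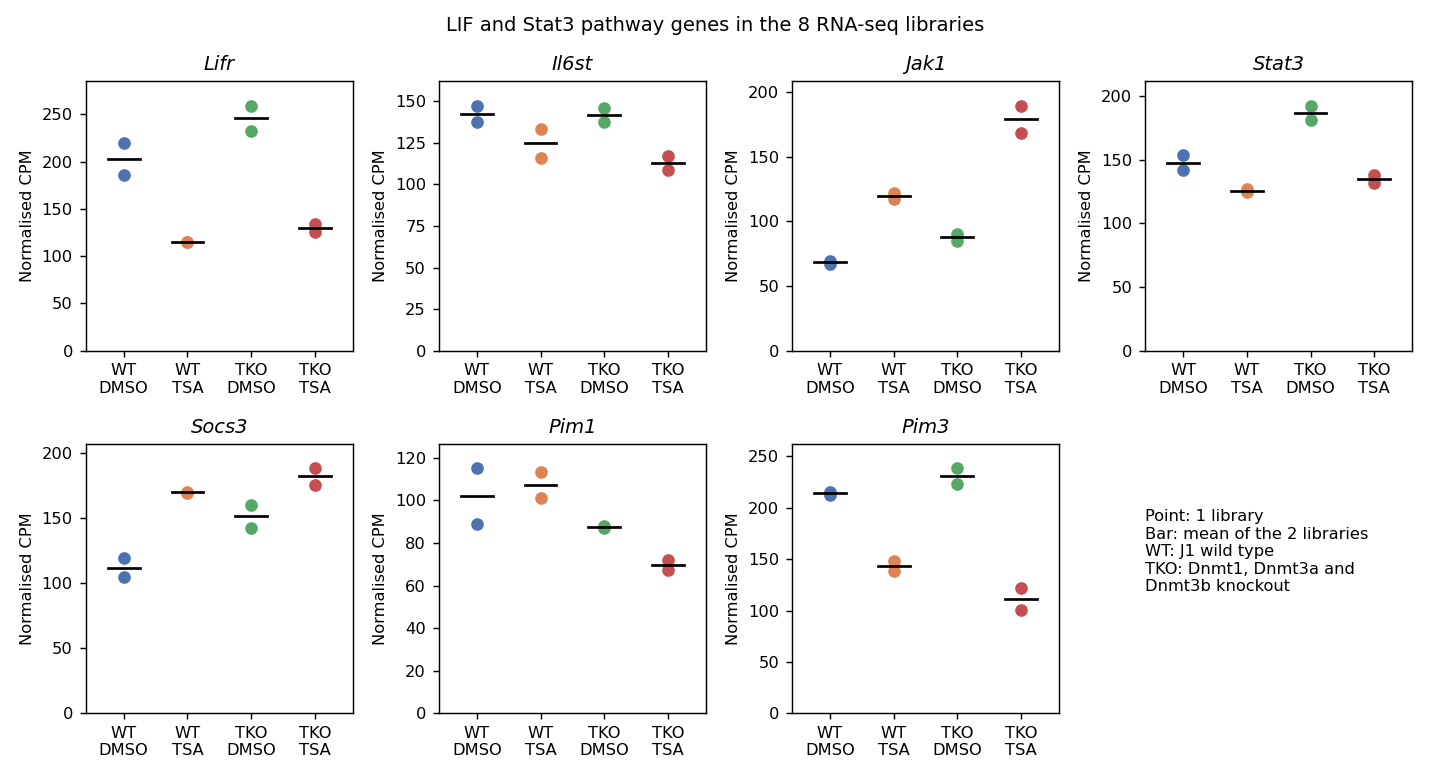
Normalised CPM of each member (vertical axis, from 0) in the 8 libraries (points), by group on the horizontal axis; bars are the means of 2 libraries. Lifr, Il6st, Stat3 and Pim3 sit lower with TSA in both genotypes, and Jak1 and Socs3 sit higher. The difference of Il6st in wild type did not pass the test.

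TSA moved the members in both directions. In wild type cells Jak1 and Socs3 rose and Lifr, Stat3 and Pim3 fell, while Il6st and Pim1 did not pass the test. In TKO cells all 7 passed, with Jak1 and Socs3 again higher and Lifr, Il6st, Stat3, Pim1 and Pim3 lower. These are 5 and 7 members of 7, beside 52.8% and 58.7% of all genes tested (27% higher and 25.9% lower in wild type, 30.8% and 27.9% in TKO), by the quasi-likelihood test of edgeR at an adjusted p below 0.05. The libraries of the 2 treatments did not overlap for 6 members in wild type and 7 in TKO, beside 77% and 82% of all genes tested. Calls were thus common among all genes in these comparisons, and nothing particular to the members is read from their number. The members' median log2 fold change was -0.19 in wild type and -0.33 in TKO, against 0.01 and 0.04 over all genes tested. Their median absolute log2 fold change was 0.58 and 0.47, against 0.48 and 0.54. The embryonic stem cell markers moved along with the treatment: 6 of 8 were called lower in wild type, 5 of 8 in TKO and none higher. Trophoblast markers moved the other way, with 8 of 9 tested called higher in wild type and 7 of 9 in TKO, and a summed level of 528 to 780 CPM in wild type cells with DMSO, 1271 to 1382 in wild type cells with TSA, 95.8 to 138 in TKO cells with DMSO and 348 to 401 in TKO cells with TSA. Most of that sum in wild type came from Krt8 and Krt18, which were singled out after their values were seen. Their means in wild type were 291 and 299 CPM with DMSO and 464 and 651 with TSA. In TKO the highest mean was that of Tfap2c, 43.7 CPM with DMSO and 203 with TSA. Elf5, a defining trophoblast gene, was at 0 in 1 library. Of 11 fibroblast markers tested, 6 were called higher and 2 lower in wild type and 10 higher and 1 lower in TKO, and Lum and Dcn were at 0 in 2 libraries each. The summed level of the 12 listed was lower with TSA (481 to 493 CPM in wild type cells with DMSO, 377 to 399 in wild type cells with TSA, 357 to 443 in TKO cells with DMSO, 256 to 330 in TKO cells with TSA), and most of it came from Fn1, which was singled out after its values were seen. Without Fn1 the other 11 summed to 76.2 to 86.3 CPM in wild type cells with DMSO and 146 to 167 with TSA, and to 40.0 to 41.0 in TKO cells with DMSO and 92.3 to 136 with TSA. Primitive endoderm markers had 2 called higher and 2 lower of 10 in each genotype. Their sums in wild type were 669 to 769 CPM with DMSO and 653 to 676 with TSA. In TKO they were 975 to 1010 CPM with DMSO and 846 to 885 with TSA. Most of each sum came from Lama1, Lamb1 and Sparc. The part of these other cell types in the members' values was not tested, and in bulk RNA fewer cells of a type cannot be told apart from less RNA per cell.

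The receptor chain Lifr fell with TSA in both genotypes. Lifr (mm10 chromosome 15, 7129572 to 7197489, plus strand, 23 exons) was at 186 and 219.7 CPM in wild type cells with DMSO and at 114.6 and 115.4 in wild type cells with TSA. In TKO it was at 259 and 232 CPM in DMSO and at 134 and 126 in TSA. The 4 groups did not overlap, and all 4 DMSO libraries lay above all 4 TSA libraries. The log2 fold change was -0.82 (SE 0.10, edgeR adjusted p 0.000116) in wild type and -0.92 (SE 0.10, edgeR adjusted p 3.27e-05) in TKO, and both were called under all 15 alternatives. The shared chain Il6st (chromosome 13, 112464070 to 112506860, plus strand, 17 exons) was the steadiest member. It was at 147 and 138 CPM in wild type cells with DMSO, 134 and 116 in wild type cells with TSA, 137 and 146 in TKO cells with DMSO and 117 and 109 in TKO cells with TSA. Neither the DMSO groups nor the TSA groups were apart between genotypes. Its log2 fold change with TSA was -0.19 in wild type (95% interval -0.41 to 0.03, edgeR adjusted p 0.123). In TKO it was -0.33 (SE 0.10, edgeR adjusted p 0.0151). That call was lost without TKO DMSO replicate 2 (edgeR adjusted p 0.0928), without TKO TSA replicate 2 (0.101) and when libraries were scaled by total counts alone (0.131).

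The kinase Jak1 rose most. Jak1 (chromosome 4, 101151974 to 101265282, minus strand, 25 exons) was at 69.6 and 67.0 CPM in wild type cells with DMSO and at 117 and 122 in wild type cells with TSA. In TKO the values were 89.9 and 85.1 CPM in DMSO and 168 and 189 in TSA. No group overlapped another, and both TSA groups lay above both DMSO groups. The log2 fold change was 0.81 (SE 0.10, edgeR adjusted p 7.57e-05) in wild type and 1.03 (SE 0.09, edgeR adjusted p 9.47e-06) in TKO, called under all 15 alternatives. The last exons of Jak1 overlap those of Raver2 on the opposite strand over 397 bases, 7.49% of the exon bases of Jak1. Raver2 had a log2 fold change with TSA of 0.05 in wild type (edgeR adjusted p 0.706) and rose by 0.39 in TKO (edgeR adjusted p 0.00931), and with TSA present it was higher in TKO than in wild type (0.43, edgeR adjusted p 0.0177). Raver2 differed by at most 3.97 CPM between a TSA and a DMSO library in wild type and 15.7 in TKO, and Jak1 by at least 47.6 and 78.6 CPM. The part of shared reads in the values of Jak1 was not tested. The exons of the other 6 members overlap no other gene of the table.

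Stat3 was lower with TSA, by less than Lifr and Pim3 in the fitted values. Stat3 (chromosome 11, 100886810 to 100939511, minus strand, 24 exons) was at 153 and 142 CPM in wild type cells with DMSO, 127 and 124 in wild type cells with TSA, 193 and 181 in TKO cells with DMSO and 138 and 132 in TKO cells with TSA. The groups did not overlap. In TKO the log2 fold change was -0.47 (SE 0.09, edgeR adjusted p 0.000890), called under all 15 alternatives. In wild type it was -0.23 (SE 0.09) with an edgeR adjusted p of 0.0436, and 2 of the 15 alternatives kept that call. It was lost on leaving out any 1 library other than wild type DMSO replicate 2, and over all alternatives the log2 fold change ran from -0.29 to -0.03 and the adjusted p from 0.0267 to 0.787.

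Of the Stat3 targets among the members, the feedback inhibitor Socs3 rose and the kinase Pim3 fell. Socs3 (chromosome 11, 117966087 to 117969366, minus strand, 2 exons) was at 105 and 119 CPM in wild type cells with DMSO and at 170.1 and 169 in wild type cells with TSA. In TKO it was at 142 and 159.9 CPM in DMSO and at 175 and 188 in TSA. The groups did not overlap, and the TKO DMSO libraries lay between those of wild type DMSO and wild type TSA. The log2 fold change was 0.60 (SE 0.10, edgeR adjusted p 0.000569) in wild type, called under all 15 alternatives. In TKO it was 0.27 (SE 0.10, edgeR adjusted p 0.0366), and 9 of 15 alternatives kept the call. It was lost without TKO DMSO replicate 1 (edgeR adjusted p 0.266), TKO TSA replicate 1 (0.0530), TKO TSA replicate 2 (0.183), wild type TSA replicate 1 (0.0581) or wild type TSA replicate 2 (0.0558), and without the filter on low counts (0.0757).

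Pim3, a serine/threonine kinase gene (chromosome 15, 88862194 to 88865726, plus strand, 6 exons), was at 216 and 212 CPM in wild type cells with DMSO and at 148 and 138 in wild type cells with TSA. In TKO it was at 223 and 238 CPM in DMSO and at 122 and 100.3 in TSA. Its 4 groups did not overlap, and both DMSO groups lay above both TSA groups. The log2 fold change was -0.58 (SE 0.10, edgeR adjusted p 0.000905) in wild type and -1.06 (SE 0.10, edgeR adjusted p 1.50e-05) in TKO, called under all 15 alternatives. Its paralogue Pim1 (chromosome 17, 29491045 to 29495459, plus strand, 6 exons) was at 115 and 88.7 CPM in wild type cells with DMSO, 113 and 101 in wild type cells with TSA, 87.2 and 87.9 in TKO cells with DMSO and 72.2 and 67.4 in TKO cells with TSA. The wild type groups overlapped, with a log2 fold change of 0.07 (95% interval -0.20 to 0.34, edgeR adjusted p 0.643). In TKO it was -0.33 (SE 0.12, edgeR adjusted p 0.0399), and 8 of 15 alternatives kept the call. It was lost without any 1 of TKO DMSO replicate 1 (edgeR adjusted p 0.114), TKO DMSO replicate 2 (0.122), TKO TSA replicate 1 (0.0637) and TKO TSA replicate 2 (0.169), with the upper quartile (0.0873) or total counts (0.228) as scaling, and in DESeq2 (0.0505).

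**Figure D2:**
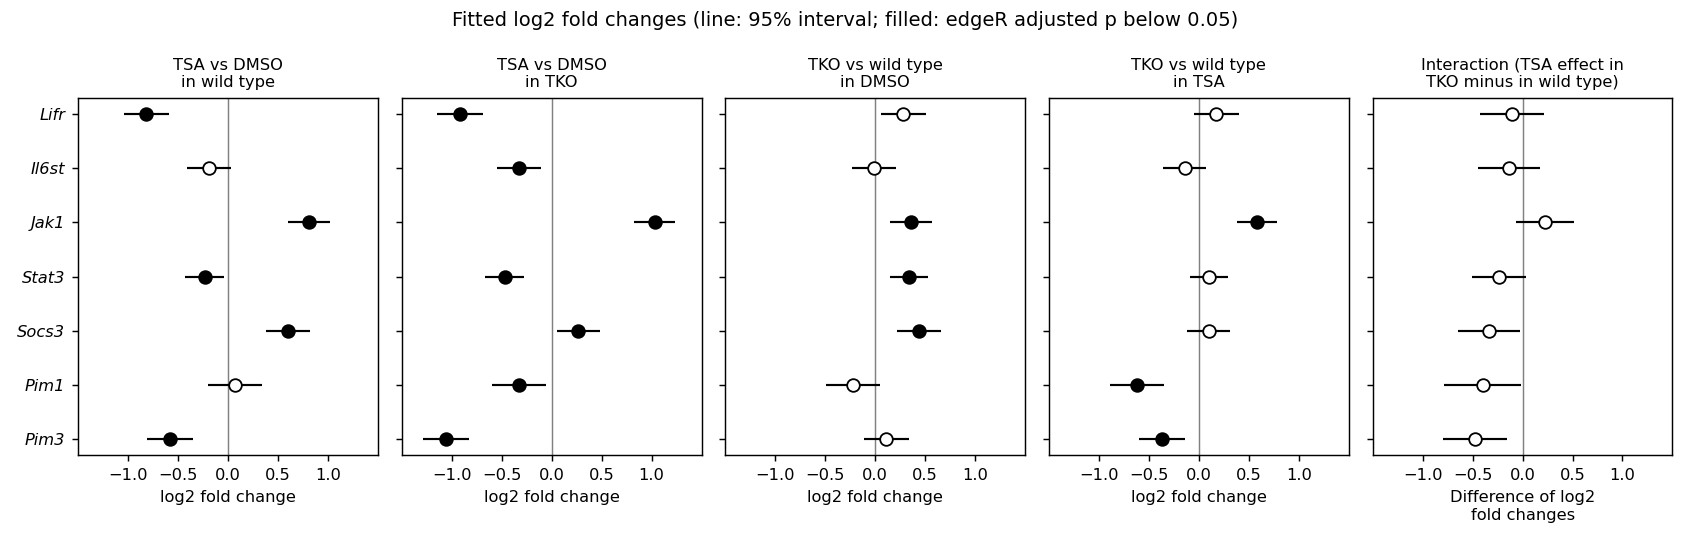
Fitted log2 fold change of each member (points) with its 95% interval (lines) in the 5 comparisons, 1 panel each; filled points have an edgeR adjusted p below 0.05. Jak1 lies furthest to the right with TSA, at 0.81 and 1.03, and no point of the interaction panel is filled.

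Without the inhibitor, 3 members were higher in TKO than in wild type cells. Stat3 rose by 0.34 (edgeR adjusted p 0.0195), Socs3 by 0.44 (edgeR adjusted p 0.0106) and Jak1 by 0.36 (edgeR adjusted p 0.0222) on the log2 scale. This is 3 of 7, all higher, beside 20.4% of all genes tested (9.63% higher and 10.7% lower). The libraries of the genotypes did not overlap for 6 of 7 members, the exception being Il6st, beside 59.8% of all genes tested. Over the 15 alternatives the log2 fold change ran from 0.28 to 0.38 for Stat3, 0.33 to 0.53 for Socs3 and 0.32 to 0.40 for Jak1. All 3 calls depended on single libraries, in fits that leave 1 library in a group. That of Stat3 was lost without wild type DMSO replicate 2 (edgeR adjusted p 0.0690), TKO DMSO replicate 1 (0.139) or TKO DMSO replicate 2 (0.0690), and that of Socs3 without wild type DMSO replicate 1 (0.0848) or TKO DMSO replicate 2 (0.113). That of Jak1 was lost on leaving out any 1 of the 4 libraries compared (edgeR adjusted p 0.0640 to 0.140), and without TKO DMSO replicate 2 no member was called. Lifr had a log2 fold change of 0.28 (95% interval 0.05 to 0.50, edgeR adjusted p 0.0791), which became a call without wild type DMSO replicate 2 (0.41, edgeR adjusted p 0.0226) and with total counts as scaling (0.30, edgeR adjusted p 0.0495). Il6st was at -0.01 (95% interval -0.23 to 0.21), Pim3 at 0.11 (-0.12 to 0.34) and Pim1 at -0.22 (-0.49 to 0.05). Pim1 was called without wild type DMSO replicate 2 (-0.39, edgeR adjusted p 0.0291). In the same comparison 5 of 9 trophoblast markers were called lower, 5 of 11 fibroblast markers lower and 1 higher, 6 of 10 primitive endoderm markers higher and 3 of 8 embryonic stem cell markers higher. Their part in the result was not tested.

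With TSA present, Jak1 was higher and Pim1 and Pim3 were lower in TKO than in wild type cells. The log2 fold change was 0.58 for Jak1 (SE 0.09, edgeR adjusted p 0.00192), called under all 15 alternatives. It was -0.62 for Pim1 (SE 0.12, edgeR adjusted p 0.00631), a call lost without wild type TSA replicate 1 (-0.54, edgeR adjusted p 0.0614). For Pim3 it was -0.37 (edgeR adjusted p 0.0324), a call lost without wild type TSA replicate 1 (0.210), wild type TSA replicate 2 (0.0658), TKO DMSO replicate 1 (0.0532), TKO DMSO replicate 2 (0.0540) or TKO TSA replicate 2 (0.254). These are 3 of 7 members, beside 18.4% of all genes tested (10% higher and 8.38% lower), and again the libraries of Il6st alone overlapped between genotypes, where 63% of all genes tested did not. Lifr (0.18), Il6st (-0.14), Stat3 (0.10) and Socs3 (0.10) did not pass, with edgeR adjusted p-values of 0.269 to 0.521. Here 4 of 9 trophoblast markers were called lower and 3 higher, 4 of 11 fibroblast markers lower and 1 higher, 4 of 10 primitive endoderm markers higher and 1 lower, and 2 of 8 embryonic stem cell markers higher and 1 lower. Their part in the result was not tested. The comparisons of TSA and of genotype share libraries: wild type DMSO serves both TSA in wild type and TKO in DMSO, so their values are not independent.

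Whether the response to TSA differed between the genotypes was tested as the interaction, which subtracts the log2 fold change with TSA of wild type cells from that of TKO cells. None of the 7 members was called by edgeR or by DESeq2, beside 1.35% of all genes tested, and 3 had an unadjusted edgeR p below 0.05, as did 14.5% of all genes tested. Pim3 had the largest difference of the 7, -0.48 (95% interval -0.80 to -0.15, edgeR adjusted p 0.156), followed by Pim1 with -0.40 (-0.78 to -0.02, edgeR adjusted p 0.324) and Socs3 with -0.34 (-0.64 to -0.03, edgeR adjusted p 0.299). The interval for Jak1 ran from -0.07 to 0.52, that for Lifr from -0.43 to 0.22 and that for Stat3 from -0.51 to 0.04. The stronger fitted fall of Pim3 and rise of Jak1 in TKO were thus not shown to differ from those in wild type.

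Ratios of 2 members within a library need no scaling between libraries, and the pairs given were chosen after the values were seen, so they are described without a test. Counts per exon base of Jak1 over those of Lifr were 0.595 to 0.731 in wild type cells with DMSO and 1.99 to 2.06 in wild type cells with TSA, and 0.676 to 0.715 in TKO cells with DMSO and 2.46 to 2.93 in TKO cells with TSA. The ratio of the kinase to the LIF receptor chain thus rose from below 1 to above 1 in both genotypes. It divides by all annotated exon bases of each gene, so a crossing in transcript number is not shown. Between the receptor chains, Lifr over Il6st was 0.664 to 0.842 and 0.453 to 0.526 in wild type cells with DMSO and TSA, and 0.841 to 0.996 and 0.602 to 0.612 in TKO. Socs3 over Stat3, the inhibitor over the factor that induces it, was 1.12 to 1.38 in wild type cells with DMSO and 2.21 to 2.24 in wild type cells with TSA, with 1.22 to 1.45 and 2.10 to 2.35 in TKO. Socs3 over Pim3, a pair of targets of Stat3, was 0.431 to 0.498 and 1.02 to 1.09 in wild type and 0.566 to 0.596 and 1.28 to 1.66 in TKO, so these targets moved apart. Pim3 over Pim1 was 1.36 to 1.73 and 0.947 to 0.989 in wild type and 1.86 to 1.96 and 1.08 to 1.22 in TKO. In each of these 5 ratios the DMSO and TSA libraries of a genotype were apart. Of single genes tested, 77% were apart in wild type and 82% in TKO, and the share among other pairs was not computed. Nothing particular to these pairs is read from their separation.

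**Figure D3:**
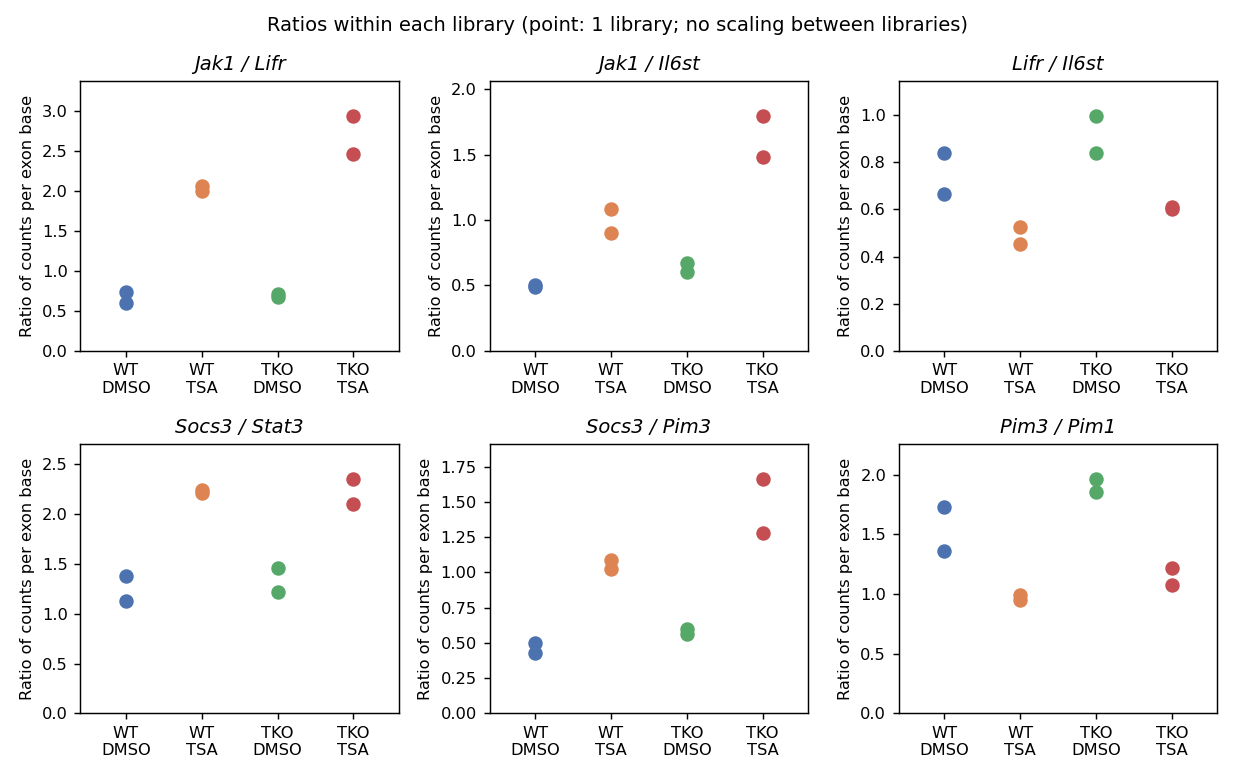
Ratio of counts per exon base between 2 members within each library (vertical axes, from 0; 1 point per library), by group on the horizontal axis. The ratio of Jak1 to Lifr lies at 0.595 to 0.731 in the DMSO libraries and at 1.99 to 2.93 in the TSA libraries.

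The wider pathway was followed through 50 further genes, of which 47 had enough reads to be tested. With TSA, 11 were called higher and 16 lower in wild type, and 11 higher and 19 lower in TKO, beside the 52.8% and 58.7% called of all genes tested. Their median log2 fold changes were -0.13 and -0.10, against 0.01 and 0.04 over all genes tested. TKO against wild type gave 4 higher and 6 lower in DMSO and 5 and 5 in TSA, beside 20.4% and 18.4% of all genes tested. The interaction called 1 of the 47, beside 1.35% of all genes tested. Values follow for genes that the naming rule picked and that were called under all 15 alternatives, 29 of 62 pairs of gene and comparison. The other 33 lost the call under at least 1 alternative and are given by count. Exceptions are Lif, the interaction of Socs6, Socs2 and Socs5 in wild type, and Stat5a in TKO. Levels that the rule did not pick are added for Pias4 in TKO and Stat6 in wild type. A gene left unnamed in a comparison may still have changed the same way there.

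Of the cytokines, 5 of 8 were tested. Lif itself, the ligand that was also supplied in the medium, was at 17.4 and 11.7 CPM in wild type cells with DMSO and at 8.48 and 7.67 in wild type cells with TSA. It was called lower in both genotypes, by 0.85 and 0.79 on the log2 scale (edgeR adjusted p 0.00626 and 0.00838). The calls were lost without wild type DMSO replicate 1 and without TKO DMSO replicate 2, respectively (edgeR adjusted p 0.0659 and 0.0707). Osm, a related ligand, fell in TKO from 2.60 and 3.49 CPM to 0.188 and 0.609 (log2 fold change -2.93, edgeR adjusted p 0.00158). In all, 1 cytokine was called higher and 2 lower in wild type and 0 and 2 in TKO, beside 52.8% and 58.7% of all genes.

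Among 5 other receptor chains, 2 were called higher and 0 lower with TSA in wild type and 1 and 2 in TKO. Of all genes tested, 52.8% and 58.7% were called. Il6ra, the chain that binds interleukin 6, rose from 1.43 and 1.54 CPM to 6.04 and 8.49 in wild type and from 1.37 and 1.45 to 9.26 and 12.5 in TKO. Its log2 fold changes were 2.29 and 2.94 (edgeR adjusted p 0.000114 and 1.29e-05), in the opposite direction to Lifr.

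Of 9 other JAK and STAT genes, 3 were called higher and 1 lower in wild type and 4 and 2 in TKO. The calls among all genes tested were 52.8% and 58.7%. Jak2 rose alongside Jak1, by 1.00 in wild type and 1.12 in TKO (edgeR adjusted p 7.39e-05 and 2.06e-05). On the per-length scale Jak2 remained below Jak1, at 4.71 and 9.41 RPKM in wild type cells with DMSO and TSA against 12.9 and 22.6 for Jak1. Stat4 rose with TSA by 0.68 and 1.04 and was lower in TKO than in wild type in DMSO (-1.06, edgeR adjusted p 0.00104). Stat5a rose by 0.90 in wild type, and Stat6 fell by 0.68 in TKO. In TKO Stat5a rose by 0.60 (edgeR adjusted p 0.0295), a call that 11 of 15 alternatives kept. Stat6 was not called in wild type, at 34.1 and 41.5 CPM with DMSO and 31.0 and 28.8 with TSA.

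Of 15 other inhibitors (Socs genes, phosphatases and Pias genes), 3 were called higher and 6 lower in wild type and 4 and 6 in TKO. Beside them stand 27% higher and 25.9% lower of all genes tested in wild type and 30.8% and 27.9% in TKO. Socs1, the closest relative of Socs3 in how it blocks JAK kinases, rose from 4.85 and 6.00 CPM to 10.99 and 14.3 in wild type, with log2 fold changes of 1.22 and 1.14 in wild type and TKO (edgeR adjusted p 0.000712 and 0.000554). In TKO Socs5 rose by 0.86 and Socs7 by 0.59, while Socs2 fell by 1.60 (edgeR adjusted p 0.00220, 0.00122 and 0.000240). In wild type Socs5 rose by 0.65 (edgeR adjusted p 0.0114) and Socs2 fell by 0.85 (edgeR adjusted p 0.00999). These wild type calls were kept by 13 and 14 of 15 alternatives, respectively. Pias2, of a family that inhibits STAT factors, fell by 0.77 and 1.11, and Pias4 fell by 0.84 in wild type. In TKO, where the naming rule did not pick it, Pias4 was also lower with TSA. It was at 53.3 and 54.0 CPM in TKO cells with DMSO and at 26.0 and 24.7 with TSA. The other Pim gene, Pim2, was lower in TKO than in wild type in DMSO (-1.32, edgeR adjusted p 0.000644), at 9.02 and 11.3 CPM against 25.3 and 25.5.

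Of 12 genes known as LIF or Stat3 targets in stem cells, 2 were called higher and 6 lower with TSA in wild type and 2 and 7 in TKO, beside 52.8% and 58.7% of all genes tested. Their median log2 fold changes were -0.54 and -0.47, against 0.01 and 0.04 over all genes tested. Tbx3, a factor that supports self-renewal, fell from 17.6 and 22.0 CPM to 6.53 and 7.67 in wild type and from 40.8 and 48.6 to 7.30 and 11.04 in TKO (log2 fold changes -1.48 and -2.28, edgeR adjusted p 0.000236 and 8.03e-06). It was higher in TKO than in wild type in DMSO (1.18, edgeR adjusted p 0.00166). Myc fell by 1.27 and 1.09. Fos and Junb, immediate early genes that many signals induce, rose instead, Fos by 1.78 and 1.89 and Junb by 0.59 and 0.91 (edgeR adjusted p 0.000274, 0.000113, 0.00142 and 6.83e-05). Pramel7 had 15 and 17 counts in wild type cells with DMSO and 0 in both wild type TSA libraries, at least 6.33-fold lower against a floor of 3 counts per library. It belongs to a family of similar copies, so its counts are uncertain. With Pramel7 set at that bound the median of the list in wild type was also -0.54.

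**Figure D4:**
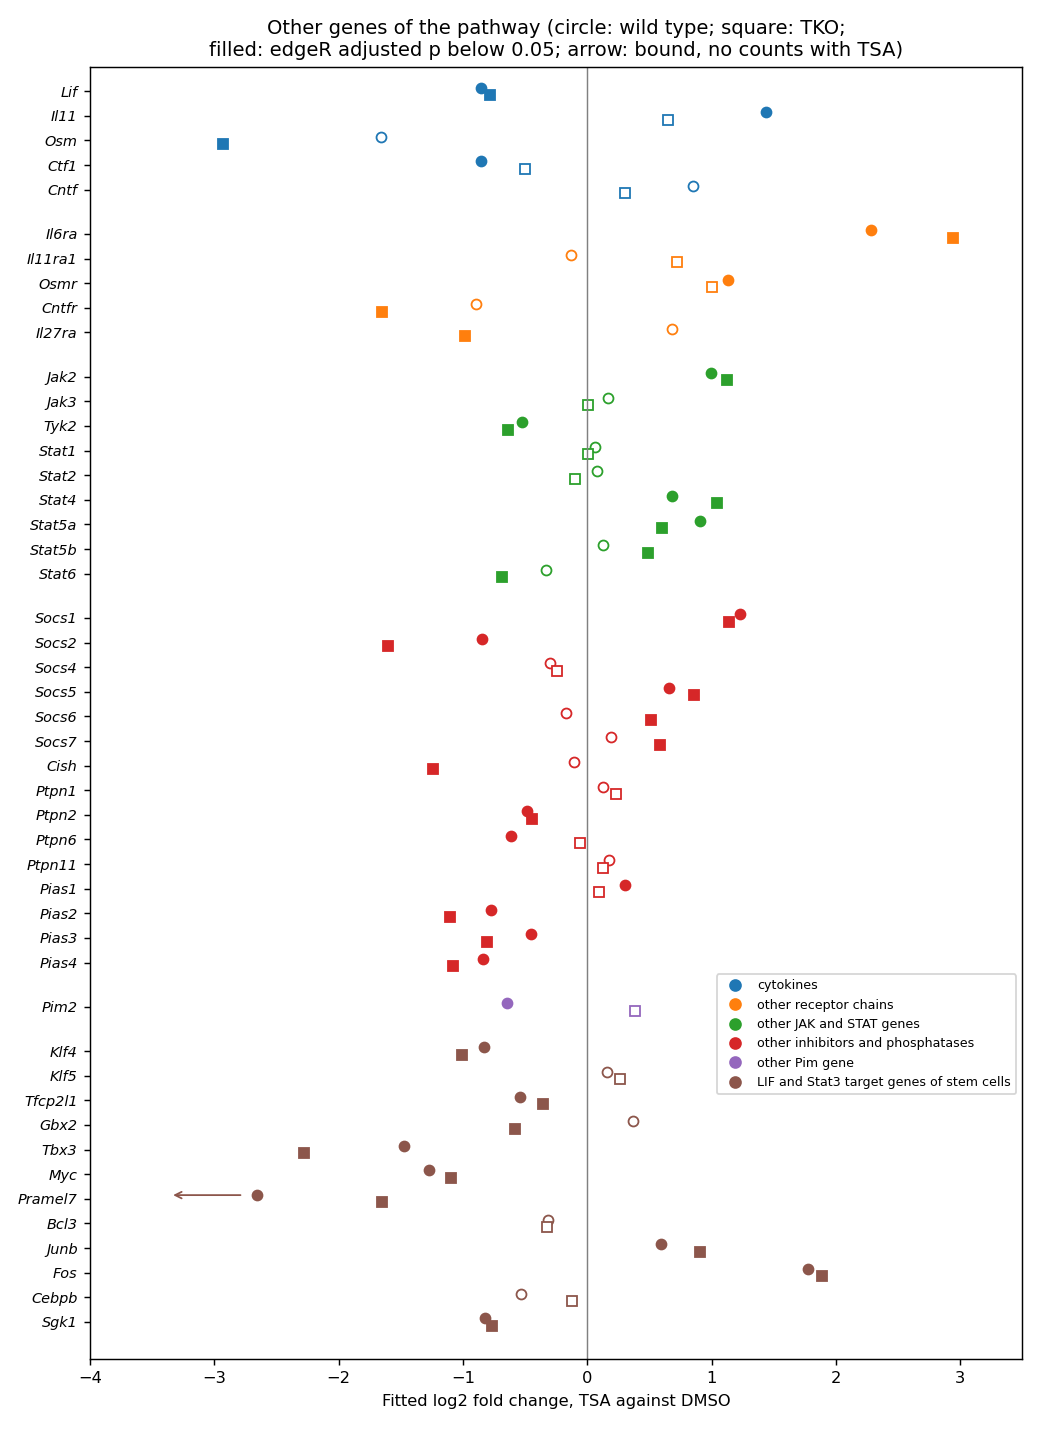
Fitted log2 fold change for TSA against DMSO (horizontal axis) of the 47 tested further genes of the pathway, in wild type (circles) and TKO (squares), coloured by list; filled symbols have an edgeR adjusted p below 0.05. Il6ra lies furthest right, at 2.29 and 2.94, and Pramel7 in wild type is drawn at its bound with an arrow.

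The genes whose levels over the 8 libraries most resembled each member were found by the smallest root mean square difference of centred log2 CPM, among 10024 tested genes whose mean level was 10 CPM or more. For Lifr they were Dtwd2 (0.0646) and Zfp652 (0.0663), for Il6st Fbxl6 (0.0426) and Ccdc93 (0.0470), and for Stat3 Kifc1 (0.0498) and Rcn1 (0.0566). For Socs3 they were Bbs9 (0.0623) and Ttbk2 (0.0719), and for Jak1 Cdo1 (0.0575) and Impdh1 (0.0648). Pim1 was closest to Tmem8 (0.0873) and Ercc1 (0.0896), and Pim3 to Sumf2 (0.0619) and Actl6a (0.0733). Impdh1 went from 41.1 ± 3.07 CPM in wild type cells with DMSO to 67.8 ± 3.21 in wild type cells with TSA and from 52.3 ± 0.166 to 104 ± 3.49 in TKO (SD, n = 2), beside 68.3 ± 1.81 to 119 ± 3.33 and 87.5 ± 3.42 to 179 ± 14.8 CPM for Jak1.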

How the data were processed

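Per the labels' protocols, RNA was cleared of genomic DNA and ribosomal RNA and sequenced in paired reads from a directional kit. The authors deposited raw read counts per gene, with each gene's exon positions and summed exon length in bases (the other deposited unit used). TopHat2 2.0.13, featureCounts 1.4.5-p1, edgeR 3.22.3 and mm10 are named in the submitters' processing notes. Whether counting used the strand is not given in the sources used here.

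Groups follow the labels, which call the 2 libraries of a group biological replicates without naming separate cultures. P-values therefore measure the spread between these libraries, estimated for each gene with information shared across all genes tested. Counts were tested in R 4.3.3 with edgeR 4.0.16 (quasi-likelihood F test, two-sided, TMM scaling, filterByExpr, 15822 genes kept, 1 fit of all 8 libraries with 4 residual degrees of freedom). P-values were adjusted by Benjamini-Hochberg over all genes tested, and genes were called at an adjusted p below 0.05. The common biological coefficient of variation was 10.3%. With 2 libraries a group, an exact permutation test of 1 gene cannot go below 0.333. Normalised CPM use the TMM factors, and RPKM divide them by the exon length. A level of 3 counts is the floor for a gene without counts, and it covers counting error only, since PCR copies are not independent molecules. No pair of replicates agreed within sampling noise (chi-square per degree of freedom 4.54 to 10.3).

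The members, gene lists and tests were chosen with earlier results of these data known. All members are named. Of the other pathway genes, the rule took for each list and comparison up to 3 called higher and 3 called lower with the largest fold change among those with a mean of at least 1 CPM. For each member it added the 2 genes of most similar pattern. Alternatives were other scalings (RLE, upper quartile, total counts), no filter on low counts, DESeq2 1.42.0, a fit of only the groups compared, the replicate number as a block, and leaving out each library. Promoter windows came from RefSeq (GRCm38.p6), matched by symbol for all 7 members. 1 further gene of the pathway is not reported here.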

Additional observations from a re-analysis of the deposited data

Results flagged for a closer look

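Among the other inhibitors of the pathway, Socs6, a relative of Socs3 in the same suppressor family, was singled out by the test of the interaction. Its response to TSA differed between the genotypes by that test. It was the 1 gene so called of the 47 further pathway genes tested, beside 1.35% of all genes tested. Nothing particular to the pathway is read from this count. Socs6 was at 64.1 and 67.3 CPM in wild type cells with DMSO, 58.2 and 58.3 in wild type cells with TSA, 51.3 and 50.8 in TKO cells with DMSO and 74.2 and 71.1 in TKO cells with TSA. TKO DMSO was thus the lowest group and TKO TSA the highest. The log2 fold change with TSA was -0.17 in wild type (edgeR adjusted p 0.136) and 0.51 in TKO (edgeR adjusted p 0.000766), and the difference was 0.68 (edgeR adjusted p 0.0361). It kept its direction under all 14 alternatives, from 0.61 to 0.73, and its call under 6 of them, with adjusted p-values of 0.0131 to 0.171. The call was lost with the upper quartile as scaling (0.0560) and in 7 of the 8 fits that left out 1 library. The cause was not tested.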

How the results depend on the processing

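For the 7 members in 5 comparisons, 20 of 35 results kept their direction and their side of the threshold under every alternative run. Of 518 single fits, 462 did so, 44 lost a call, 3 gained one and 9 turned the direction of a value that was not called. On the log2 scale those were Il6st for TSA in wild type with total counts (0.0108) and Il6st for TKO in DMSO with the upper quartile (0.0217), total counts (0.0113) and no low-count filter (0.00666). The others came from leaving out 1 library, over which Pim1 for TSA in wild type ran from -0.109 to 0.270 (below 0 without wild type DMSO replicate 2 or wild type TSA replicate 1). Il6st for TKO in DMSO ran from -0.0584 to 0.0315 (above 0 without wild type DMSO replicate 1 or TKO DMSO replicate 1), and the interaction of Lifr from -0.230 to 0.0235 (above 0 without wild type DMSO replicate 1).

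Leaving out 1 library at a time, the members called numbered 4 to 7 for TSA in TKO (4 without TKO TSA replicate 2), 0 to 3 for TKO in DMSO (1 without wild type DMSO replicate 1, 1 without TKO DMSO replicate 1, 0 without TKO DMSO replicate 2) and 1 to 3 for TKO in TSA (1 without wild type TSA replicate 1). Over all genes the same fits called 5780 to 8279 genes for TSA in wild type, 7123 to 9839 for TSA in TKO, 1458 to 3330 for TKO in DMSO, 941 to 3443 for TKO in TSA and 10 to 410 for the interaction. The interaction called 213 genes in the report, 488 without the filter and 401 in DESeq2. The cause was not tested.

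When total counts alone set the scaling, the median of all genes moved from 0.01 to 0.22 for TSA in wild type and from 0.04 to 0.19 in TKO, and with the upper quartile to 0.16 and 0.11, so directions are relative to TMM. Genes called higher were 5812 of 8245 for TSA in wild type and 5908 of 9175 in TKO with total counts, and 5365 of 8159 in wild type with the upper quartile, against 4266 of 8358 and 4872 of 9284 with TMM.

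Same-numbered libraries deviated together with correlations across genes of 0.0673 to 0.325 over 6 pairs of groups, and the labels do not say what a number shares. With the replicate block the members called were 5, 7, 3, 3 and 0, as without it, and the interaction called 633 genes. A lone library is assumed to vary like the other groups. Depth does not limit the members, whereas cytokines such as Osm rest on few counts.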
